A study of Mus musculus with 12 samples.

Results

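Immediate early genes were examined in gastrocnemius, a large calf muscle, from C57BL/6 mice aged 8 weeks. The members were chosen by symbol: Fos, Fosb, Jun, Junb, Jund, Egr1, Ier2, Ier3, Btg2 and Atf3, of which 9 of 10 are among the 10475 genes of the deposited expression table, and all 9 passed the filter that left 10415 genes for testing. Fosb is no row of that table and is listed at 0 in every one of the 12 libraries of the authors' deposited log2 tables. The transgenic (TG) mice overexpress E4BP4, a clock-linked transcriptional repressor encoded by Nfil3, in the liver, and were compared with wild-type (WT) mice. Samples came from lights-off, Zeitgeber time (ZT) 12, and from lights-on, ZT0, in 4 groups of 3 libraries: TG at ZT12, WT at ZT12, TG at ZT0 and WT at ZT0. All mice ate normal chow at random times under 12 h of light and 12 h of dark. The labels name neither the promoter behind the transgene nor a sex, and they do not say that each library is a separate mouse, so p-values measure the spread between these libraries, which may be technical. Because the transgene is directed to the liver, nothing in muscle RNA checks it; muscle Nfil3 averaged 13.5 TPM in TG and 11.8 TPM in WT at ZT12, and 16.04 TPM in TG and 17.2 TPM in WT at ZT0.

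Immediate early genes are switched on within minutes of a stimulus, without any new protein being made first. MAP kinase signals reach serum response factor and its ternary complex partners, and calcium or cyclic AMP signals reach CREB, which are already bound at these promoters. FOS and JUN family proteins then pair as the factor AP-1, EGR1 binds GC-rich sites, and the early RNAs are destroyed quickly, so that a level is a record of the recent past. In skeletal muscle they are known to respond to contraction, stretch, injury and handling. Not every member is a DNA-binding factor: Ier3 encodes a small regulator of survival signalling, and Btg2 an antiproliferative protein that works with the CCR4-NOT deadenylase.

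Promoters of 4 members are shown, those of Fos and Junb because the time-of-day result turns on them, that of Jun as the AP-1 partner whose values lay lower at ZT12, and that of Btg2 because it alone of the 8 windows found held a complete cyclic AMP response element (CRE). Each runs 5′ to 3′ on the gene's strand, from 250 bases before to 50 bases after the start in RefSeq on GRCm38.p6, the assembly also called mm10. The Fos window is chr12:85473640-85473939 on the plus strand. The Jun window is chr4:95052173-95052472, the Junb window chr8:84978699-84978998 and the Btg2 window chr1:134079106-134079405, all on the minus strand. Capitals mark the letters that matched a motif named after the sequences.
Fos: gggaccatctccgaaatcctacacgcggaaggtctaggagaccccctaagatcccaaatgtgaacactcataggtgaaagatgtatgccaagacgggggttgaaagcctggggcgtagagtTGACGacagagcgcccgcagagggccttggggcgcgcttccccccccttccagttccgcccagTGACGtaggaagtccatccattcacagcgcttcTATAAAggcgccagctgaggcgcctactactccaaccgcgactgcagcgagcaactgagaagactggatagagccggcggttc
Junb: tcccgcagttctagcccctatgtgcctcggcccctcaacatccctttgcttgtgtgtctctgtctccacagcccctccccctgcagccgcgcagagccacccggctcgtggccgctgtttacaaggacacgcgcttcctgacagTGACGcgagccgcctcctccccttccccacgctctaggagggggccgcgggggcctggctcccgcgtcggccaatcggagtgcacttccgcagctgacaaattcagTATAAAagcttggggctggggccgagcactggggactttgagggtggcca
Jun: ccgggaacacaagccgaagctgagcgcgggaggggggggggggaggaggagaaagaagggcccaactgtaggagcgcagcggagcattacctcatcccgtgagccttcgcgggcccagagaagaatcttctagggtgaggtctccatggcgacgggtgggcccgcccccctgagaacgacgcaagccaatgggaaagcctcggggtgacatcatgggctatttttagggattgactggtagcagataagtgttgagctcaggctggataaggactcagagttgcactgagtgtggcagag
Btg2: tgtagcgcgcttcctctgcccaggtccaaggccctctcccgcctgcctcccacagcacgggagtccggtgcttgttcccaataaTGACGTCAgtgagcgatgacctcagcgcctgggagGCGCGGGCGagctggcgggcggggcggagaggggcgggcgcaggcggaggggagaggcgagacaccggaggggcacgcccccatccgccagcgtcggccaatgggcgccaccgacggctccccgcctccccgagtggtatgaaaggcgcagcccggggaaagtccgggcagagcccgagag

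RefSeq windows were found for 8 of the 10 members, all but Egr1 and Ier2, and both strands were searched. The CRE core TGACG, which CREB and its relatives read, was in 5 of 8 member windows (Fos, Fosb, Junb, Btg2 and Atf3), against 20.8% of all 32851 promoter windows of the same length. In Fos it began 129 and 66 bases before the start, and in Junb 106 bases before it. The full element TGACGTCA, which holds TGACG on both strands, was in Btg2, 166 bases before the start, and in 1.79% of all windows. The EGR site GCGNGGGCG was in Btg2 and Fosb and in 5.55% of all windows. A TATA box, TATAAA, lay 33 bases before the Fos start and at the listed Junb start itself, against 13.6% of all windows. The AP-1 site TGANTCA (7.81% of all windows), the D-box TTANGTAA that E4BP4 reads (2.32%) and the CArG box of serum response factor (1.63%) matched in 0 of 8. Jun held no exact match to the 7 motifs. A match is a string of letters, not a measured site. Only exact letters inside these windows were searched, so a site farther upstream or with other letters would be missed.

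Expression values are in TPM, relative abundances that correct for transcript length and so can be set against each other between genes. Jund, the JUN family member that most tissues make without a stimulus, was the highest at a mean of 35.9 TPM over the 12 libraries, and Jun followed with 31.2 TPM. Ier2 averaged 7.55 TPM, Junb 6.78 TPM, Btg2 5.84 TPM, Ier3 5.22 TPM, Fos 4.06 TPM, Egr1 3.08 TPM and Atf3 2.29 TPM. Jund exceeded Jun in 9 of 12 libraries, and Jun exceeded Ier2 in 12 of 12. Below them neighbours in the order crossed: Ier2 was above Junb in 9 libraries, Junb above Btg2 in 6, Btg2 above Ier3 in 5, Ier3 above Fos in 7, Fos above Egr1 in 8 and Egr1 above Atf3 in 6.

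**Figure D1:**
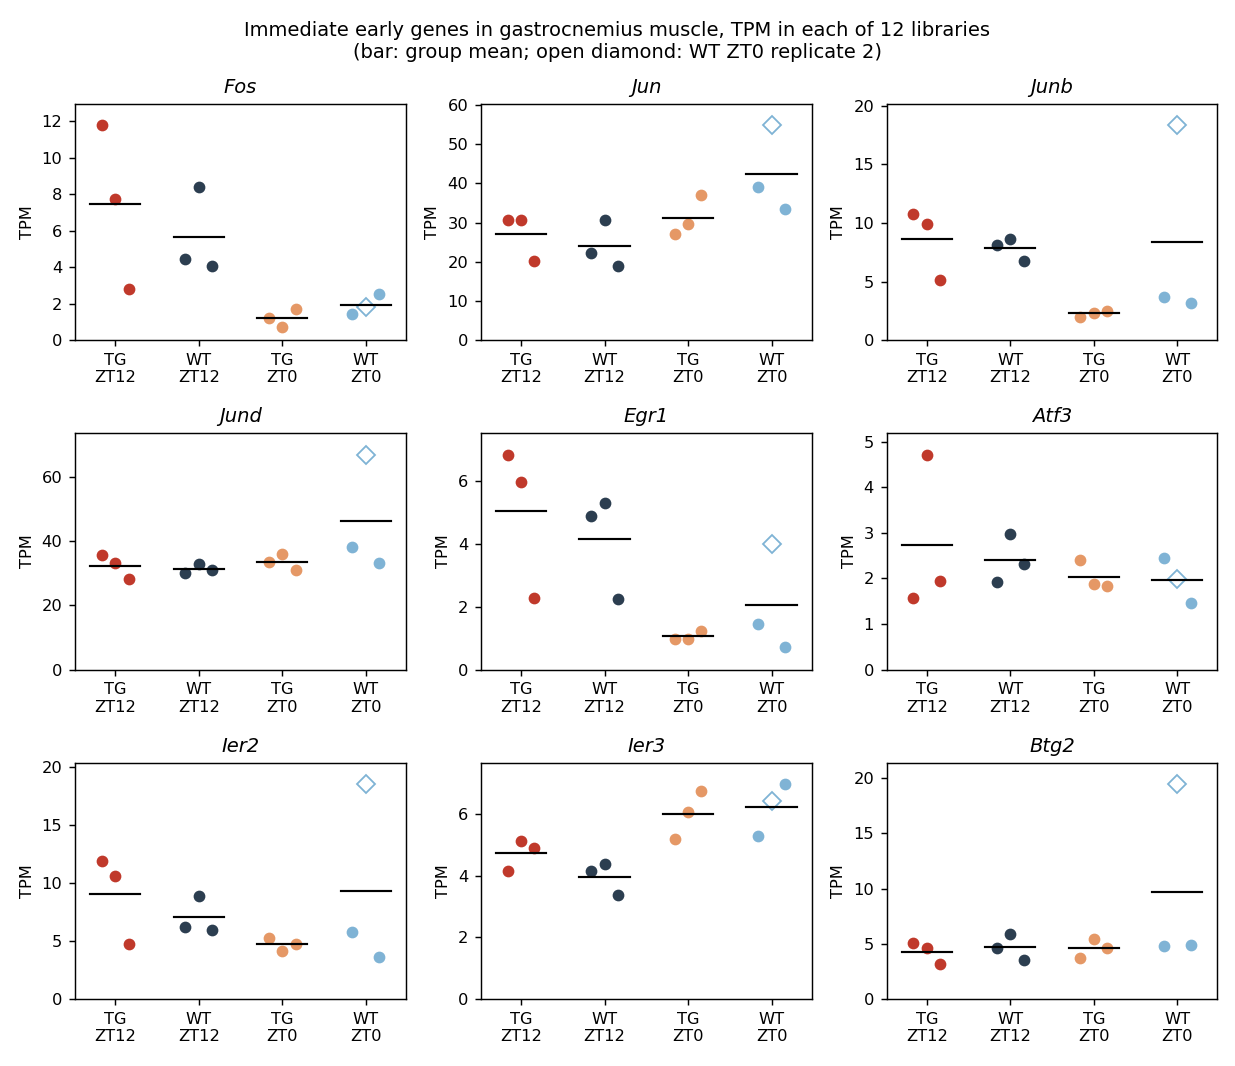
TPM of the 9 listed immediate early genes in each of the 12 libraries, 1 panel a gene, with a bar at each group mean and every axis starting at 0. Fos is at 2.78 TPM or more in the 6 libraries of ZT12 and at 2.53 TPM or less in the 6 of ZT0, and the open diamond (WT ZT0 replicate 2) is the highest of the 12 points for Jun, Junb, Jund, Ier2 and Btg2.

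Depth and tissue make-up were uneven across the libraries. TPM values turned into whole reads at 1 scale per library, and these summed to 13126327 to 15780298 in TG and 17715536 to 20157301 in WT at ZT12, against 10388085 to 11451635 in TG and 9213368 to 13149150 in WT at ZT0. Several members rested on few reads: Fos on 19 to 448 a library, Egr1 on 32 to 381 and Atf3 on 41 to 157. Junb had 45 to 475 and Ier3 64 to 107. The lowest Fos value, 0.745 TPM in TG ZT0 replicate 2, has an exact Poisson 95% interval of 0.449 to 1.16 TPM, which covers counting error only. All 6 muscle fibre markers were present, with a summed level of 64522 to 73398 TPM over the libraries. The 5 red cell markers (haemoglobin genes and Alas2) summed to 2959, 4565 and 145 TPM in TG and 1526, 4257 and 176 TPM in WT at ZT12, against 110 to 156 TPM in TG and 86.2 to 163 TPM in WT at ZT0. Fewer cells of a type and less RNA per cell cannot be told apart in such bulk samples.

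WT ZT0 replicate 2 stood apart before any comparison. Its median correlation with the other libraries was 0.946, the lowest of the 12, and 84.4% of tested genes were higher there than in the mean of the other WT ZT0 libraries, with a median ratio of 1.34. Among the members the ratio was 5.37 for Junb, 3.99 for Btg2, 3.92 for Ier2, 3.65 for Egr1, 1.87 for Jund and 1.51 for Jun, but 1.05 for Ier3, 1.01 for Atf3 and 0.920 for Fos. Markers of some other cell types were also high in it, and those of others were not. The 6 lymphocyte markers (Cd79a, Cd79b, Cd3e, Cd3d, Ms4a1 and Ptprc) are no rows of the TPM table. In the authors' deposited log2 table of ZT0 all 6 were highest in this library, by 0.11 to 0.35. There 3 of the 4 neutrophil markers were also highest in it, by at most 0.098. The log2 scale of that table is not that of TPM, so these gaps cannot be read as TPM ratios. Summed markers were also highest there for endothelium (102 TPM, against 42.3 to 77.7 TPM in the other 11), macrophages (97.2 TPM) and adipocytes (75.1 TPM). They were not highest there for fibro-adipogenic cells (341 TPM), smooth muscle (52.0 TPM) or Schwann cells (95.6 TPM). Muscle fibre markers (64522 TPM) and red cell markers (86.2 TPM) were lowest there. The part of these cell types in the members' values was not tested. Several results that rest on WT ZT0 replicate 2 are therefore given with and without it. TG ZT12 replicate 1 had the next lowest median correlation with the other libraries, 0.975, and some fits leave it out as well. That library held the highest Fos and Egr1 values of the 12.

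Fos was higher at the start of the dark phase. Fos, the FOS partner of AP-1, is the member most used as a mark of recent stimulation. It had 11.8, 7.76 and 2.78 TPM in TG and 4.47, 8.38 and 4.07 TPM in WT at ZT12, against 1.23, 0.745 and 1.70 TPM in TG and 1.46, 1.84 and 2.53 TPM in WT at ZT0. Every ZT12 library exceeded every ZT0 library, though TG ZT12 replicate 3 cleared WT ZT0 replicate 3 only narrowly. Over both genotypes the mean was 6.54 TPM at ZT12 and 1.58 TPM at ZT0, a log2 fold change of 1.46 ± 0.27 (SE, n = 6 each; adjusted p = 0.0273, limma), on the log2(TPM + 1) scale, which understates changes of low genes. Fos was the 1 member of 9 called in that comparison at an adjusted p under 0.05, against 0.883% of all tested genes. Its groups were also the 1 member pair that did not overlap with ZT12 higher, against 0.538% of all genes.

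The Fos call is close to its threshold. Leaving out each library in turn kept the adjusted p between 0.0046 and 0.0947, under 0.05 in 5 of 12 fits, with a log2 fold change of 1.26 to 1.70. The 7 libraries whose removal ended the call were WT ZT0 replicate 1, TG ZT0 replicates 1 and 2, all 3 WT ZT12 libraries and TG ZT12 replicate 2. Limma-voom on the recovered reads gave 1.93 with an adjusted p of 0.0523, and it called 0 of 9 members, against 1.86% of all genes. With the red cell sum as a covariate the Fos difference was 0.69 (adjusted p = 1.00), and with depth as a covariate 2.00 (adjusted p = 0.239). Depth was higher at ZT12 with almost no overlap between the times, so depth and time cannot be told apart here. Over all genes the depth covariate moved the median of this comparison from -0.03 to -0.38. The ZT12 libraries with few red cell transcripts were TG replicate 3 at 145 TPM and WT replicate 3 at 176 TPM. They had the lowest Fos of their groups, 2.78 and 4.07 TPM, and both lay above all 6 ZT0 libraries.

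Within each genotype the Fos difference had the same sign. In TG mice the mean was 7.44 ± 4.51 TPM at ZT12 and 1.22 ± 0.48 TPM at ZT0 (SD, n = 3 each; log2 fold change 1.78 ± 0.39 SE, adjusted p = 0.172 by limma). In WT mice it was 5.64 ± 2.38 TPM at ZT12 and 1.94 ± 0.54 TPM at ZT0 (log2 fold change 1.13 ± 0.39 SE, adjusted p = 0.635 by limma). Neither passed the threshold, and the interaction, 0.64 with an interval of -0.55 to 1.84, did not show that the genotypes differ. Without TG ZT12 replicate 3 the TG change was called, at 2.27 (adjusted p = 0.0246).

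**Figure D2:**
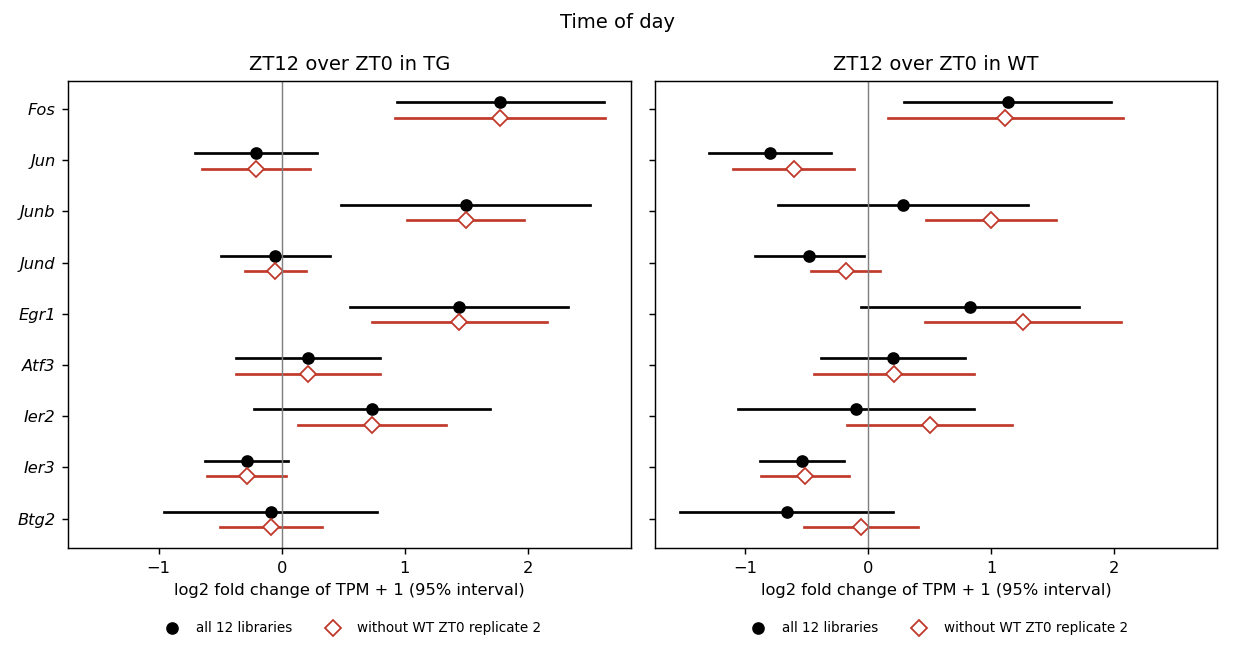
Log2 fold change of ZT12 over ZT0 for each member in TG (left) and WT (right), with 95% intervals, from all 12 libraries (filled) and without WT ZT0 replicate 2 (open). Fos, Egr1 and Junb lie furthest to the right in TG, and the WT value of Junb moves from 0.29 to 1.00 when that library is left out.

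Egr1 and Junb stood higher at ZT12 in most libraries without passing the test. Egr1, a zinc finger factor, had 6.82, 5.97 and 2.29 TPM in TG and 4.89, 5.29 and 2.24 TPM in WT at ZT12, against 0.993, 0.988 and 1.25 TPM in TG and 1.46, 4.002 and 0.735 TPM in WT at ZT0. One ZT0 library, WT replicate 2, lay among the ZT12 values; the other 5 were below all of them. The log2 fold change over both genotypes was 1.14 ± 0.29 (SE; adjusted p = 0.133, limma), and it passed the threshold without WT ZT0 replicate 2 (1.35, adjusted p = 0.0226). It was 0.51 with the red cell covariate and 1.02 with depth as a covariate.

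Junb, a JUN family member often induced alongside Fos, showed the same arrangement. Its values were 10.8, 9.88 and 5.13 TPM in TG and 8.14, 8.65 and 6.73 TPM in WT at ZT12, against 1.96, 2.36 and 2.52 TPM in TG and 3.65, 18.4 and 3.18 TPM in WT at ZT0. Here too WT ZT0 replicate 2 was the exception, at the top of all 12, and the other 5 ZT0 libraries were below the 6 of ZT12. The log2 fold change over both genotypes was 0.89 ± 0.33 (SE; adjusted p = 0.479, limma) with all libraries and 1.25 (adjusted p = 0.0035) without that one, when Junb was called. In TG alone, the Junb value was 1.495 (adjusted p = 0.696, limma), and without that WT library, whose spread the fit shares, the same 1.495 had an adjusted p of 0.0154. Over both genotypes the value was 0.60 with the red cell covariate and -0.15 with depth as a covariate, which cannot be told apart from time here.

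Jun and Ier3 lay lower at ZT12 without passing the test. Jun, the classical AP-1 partner of FOS, had 30.8, 30.6 and 20.3 TPM in TG and 22.2, 30.6 and 19.0 TPM in WT at ZT12, against 27.2, 29.6 and 37.2 TPM in TG and 39.1, 54.9 and 33.6 TPM in WT at ZT0. The WT groups did not overlap, while the TG groups did. Its log2 fold change was -0.80 ± 0.23 in WT (adjusted p = 0.358) and -0.50 ± 0.16 over both genotypes (SE; adjusted p = 0.293, limma). Ier3 had 4.15, 5.11 and 4.90 TPM in TG and 4.14, 4.38 and 3.37 TPM in WT at ZT12, against 5.17, 6.03 and 6.72 TPM in TG and 5.28, 6.40 and 6.94 TPM in WT at ZT0. All 6 ZT12 libraries were below all 6 of ZT0, the 1 member with ZT12 lower in that way against 0.989% of all genes. The gap was narrow, with TG ZT12 replicate 2 at 5.11 TPM and TG ZT0 replicate 1 at 5.17 TPM. Ier3 rested on 64 to 107 reads a library. Its log2 fold change over both genotypes was -0.41 ± 0.11 (SE, adjusted p = 0.160, limma).

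For Ier2, Btg2, Jund and Atf3 no time difference passed the test. Ier2, an early response nuclear protein, had 11.9, 10.7 and 4.77 TPM in TG and 6.22, 8.92 and 6.01 TPM in WT at ZT12, against 5.28, 4.21 and 4.76 TPM in TG and 5.77, 18.5 and 3.67 TPM in WT at ZT0. Btg2 had 5.12, 4.62 and 3.17 TPM in TG and 4.61, 5.90 and 3.60 TPM in WT at ZT12, against 3.75, 5.45 and 4.65 TPM in TG and 4.83, 19.4 and 4.92 TPM in WT at ZT0. For both, the groups overlapped and the largest of the 12 values was WT ZT0 replicate 2. Jund ran from 28.4 to 66.9 TPM with 11 libraries at 38.2 TPM or below, the same library again on top, and its WT groups did not overlap, with 30.0 to 32.9 TPM at ZT12 and 33.3 to 66.9 TPM at ZT0. Atf3, a bZIP factor of the stress response, ran from 1.47 to 4.71 TPM, with its highest value in TG ZT12 replicate 2. Over both genotypes their log2 fold changes were 0.32 for Ier2, -0.38 for Btg2, -0.26 for Jund and 0.21 for Atf3, with adjusted p of 0.914 to 0.997 by limma. Leaving out each library in turn gave 0.10 to 0.62 for Ier2 and -0.53 to -0.076 for Btg2. It gave -0.36 to -0.12 for Jund and 0.031 to 0.32 for Atf3.

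By genotype, the time comparison called 0 of 9 members in TG (0.154% of all genes were called) and 0 of 9 in WT (0.115%). At an unadjusted p under 0.05 stood 3 members in TG (3.53% of all genes) and 4 in WT (4.65%); by limma-voom 0 were called in each, against 0.269% of genes in TG and 0.538% in WT. The groups did not overlap for 3 members with ZT12 higher in TG (Fos, Junb and Egr1, against 3.21% of genes) and for 1 with ZT12 lower (Ier3, against 3.87%). In WT this held for 1 member with ZT12 higher (Fos, against 5.62%) and for 3 with ZT12 lower (Jun, Jund and Ier3, against 5.2%).

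Within the summed AP-1 transcripts Fos took a larger share at ZT12; these shares reuse the values above and were not tested. Fos formed 13.2, 9.53 and 4.92% of the summed TPM of Fos, Jun, Junb and Jund in TG and 6.89, 10.4 and 6.68% in WT at ZT12, against 1.92, 1.08 and 2.34% in TG and 1.77, 1.29 and 3.48% in WT at ZT0. Junb formed 9.08 to 12.1% in TG and 10.7 to 12.6% in WT at ZT12, against 3.07 to 3.48% in TG and 4.38 to 12.9% in WT at ZT0. Jun had a smaller share at ZT12, with 34.5 to 37.6% in TG and 31.2 to 38.0% in WT at ZT12, against 42.6 to 51.3% in TG and 38.7 to 47.4% in WT at ZT0. The Fos and Jun shares did not overlap between the times, although the gap for Jun was under 1 percentage point. The summed level itself overlapped, at 56.6 to 89.1 TPM in TG and 61.0 to 80.5 TPM in WT at ZT12, against 63.9 to 72.5 TPM in TG and 72.6 to 142 TPM in WT at ZT0.

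**Figure D3:**
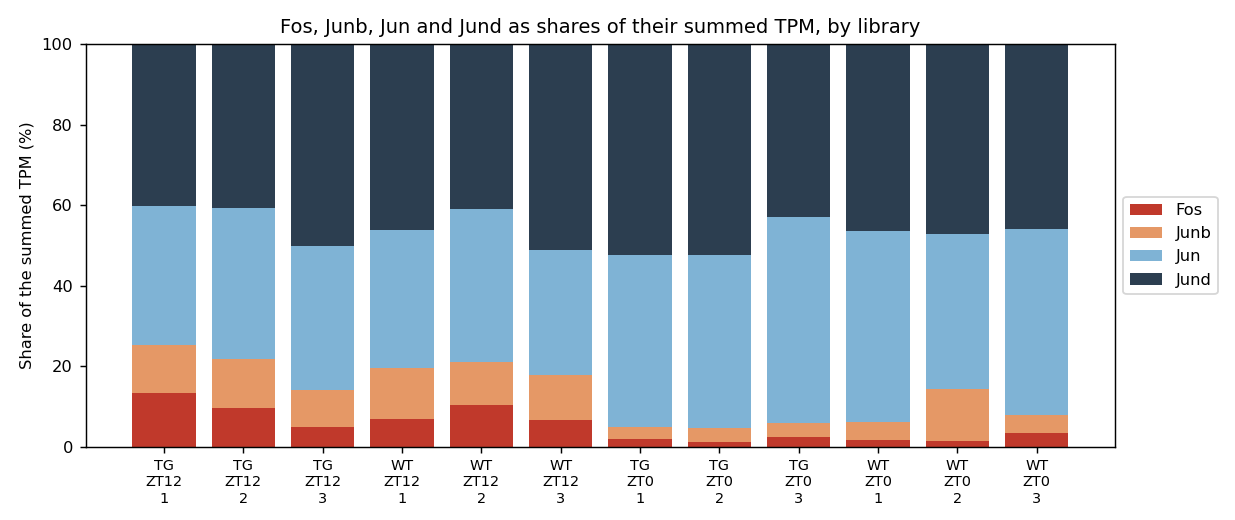
Fos, Junb, Jun and Jund as percentages of their summed TPM, 1 stacked bar for each library. The Fos segment is 4.92 to 13.2% in the 6 ZT12 bars and 1.08 to 3.48% in the 6 ZT0 bars, and the Junb segment of WT ZT0 replicate 2 (12.9%) is the highest of the 12, while the other 5 ZT0 segments of Junb lie below all 6 of ZT12.

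The liver transgene was compared with WT at each time, which asks whether the muscle of these mice carries another immediate early state. At ZT12, limma called 0 of 9 members (0% of all genes were called; limma-voom called 0 members, and 0 had an unadjusted p under 0.05). Of the members, 8 of 9 were higher in TG, against 23.4% of all genes, and 4 of 9 were without TG ZT12 replicate 1. Their median was 0.18 on the log2 scale with all libraries, against -0.07 over all genes. The highest was Ier2 at 0.26, with an interval of -0.70 to 1.22, and Fos followed at 0.24 (-0.61 to 1.08). The groups overlapped for all 9, while 0.528% of genes had TG wholly higher and 4.26% wholly lower.

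At ZT0, limma again called 0 of 9 members (0% of all genes; limma-voom 0), and 1 member, Junb, had an unadjusted p under 0.05. Of the 9, 8 were lower and 1 higher in TG, while 23.5% of all genes were higher. With median-of-ratios or upper-quartile scaling, under which Ier3 turned, 7 were lower. The members' median log2 fold change was -0.41 against -0.10 over all genes. Junb was the member furthest from 0, with 1.96, 2.36 and 2.52 TPM in TG and 3.65, 18.4 and 3.18 TPM in WT. Every TG value lay under every WT value, which made Junb the 1 member wholly lower in TG, against 3.22% of genes; none was wholly higher, against 1.4% of genes. Its log2 fold change was -1.14 ± 0.47 (SE; adjusted p = 0.998, limma). Without WT ZT0 replicate 2 it was -0.43, the members' median was -0.08, and 6 of 9 were lower in TG. Btg2 moved from -0.67 to -0.08 and Ier2 from -0.57 to 0.03 on leaving out that library, while Fos stayed near -0.4 (-0.41 with it and -0.43 without it).

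**Figure D4:**
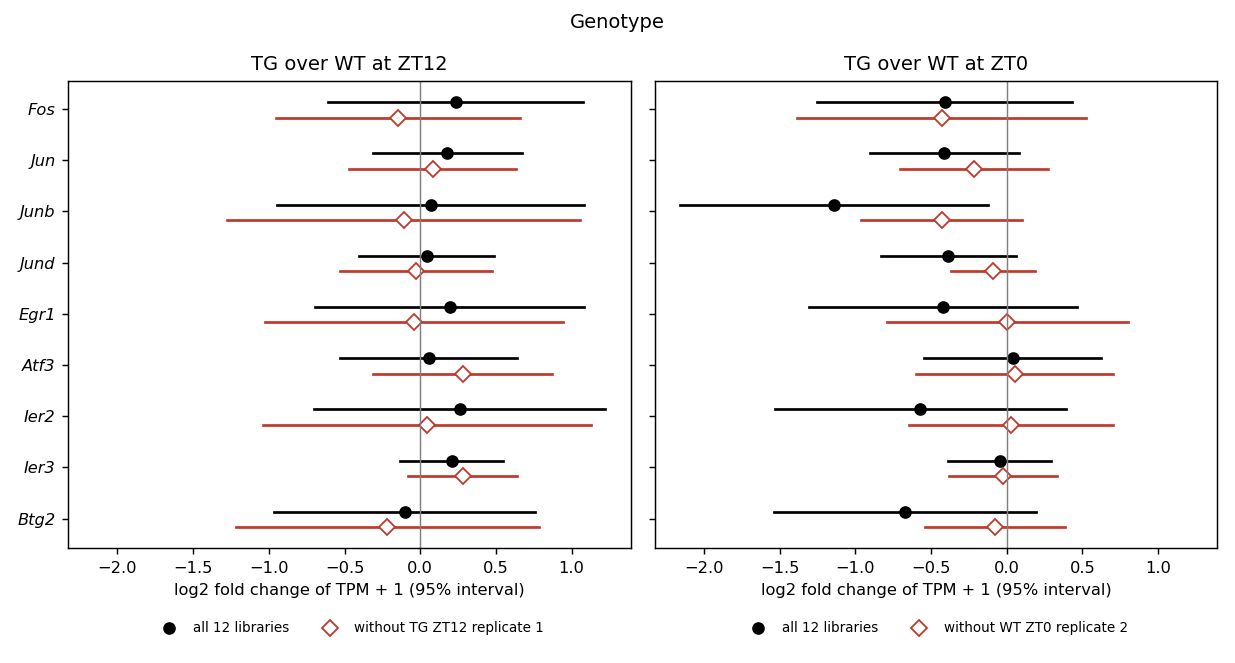
Log2 fold change of TG over WT for each member at ZT12 (left) and ZT0 (right), with 95% intervals. Filled points use all 12 libraries, and open points leave out TG ZT12 replicate 1 (left) or WT ZT0 replicate 2 (right). At ZT0 the values of Junb, Ier2, Btg2 and Egr1 move towards 0 without WT ZT0 replicate 2, and at ZT12 the value of Fos changes sign without TG ZT12 replicate 1.

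Over both times 0 of 9 members differed between TG and WT (0% of all genes were called; limma-voom 0 members, and 0 at an unadjusted p under 0.05), and the largest difference was that of Junb, -0.54 with an interval of -1.25 to 0.18, which was -0.18 without WT ZT0 replicate 2. The interaction, the change from ZT0 to ZT12 in TG over that in WT, was positive for 9 of 9 members (57.2% of all genes) and called for 0 (0% of all genes; limma-voom 0, and 0 at an unadjusted p under 0.05). It was positive for 8 of 9 with either rescaling, with limma-voom and without WT ZT0 replicate 2, and for 7 of 9 without that library and TG ZT12 replicate 1. The members' median was 0.59 with all libraries and 0.23 without WT ZT0 replicate 2. Junb had the largest value, 1.21 with an interval of -0.22 to 2.64, and 0.50 without WT ZT0 replicate 2. The authors' deposited table gave the 9 members log2 fold changes of TG over WT of 0.008 to 0.057 at ZT12 and -0.098 to 0.011 at ZT0, all with an adjusted p of 1.00. Their scale is not that of the fold changes above: Junb at ZT0 was -0.077 there and -1.14 from TPM. The sizes cannot be compared.

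Members differed in their spread between libraries, and for some of them WT ZT0 replicate 2 carried much of it. The SD within groups, on the log2 scale, was 0.55 for Fos with all libraries and 0.59 without that one, above 95.03 and 98.1% of tested genes, and 0.58 and 0.48 for Egr1, above 95.7 and 96.7%. Ier2 had 0.64 with it and 0.40 without it, above 96.8 and 93.8% of genes. Junb had 0.68 and 0.30, above 97.2 and 83.4%, and Btg2 0.57 and 0.25, above 95.4 and 71.02%. The SD was 0.36 with the library and 0.38 without it for Atf3, 0.32 and 0.29 for Jun, and 0.28 and 0.12 for Jund. Ier3 had 0.16 and 0.17, and the median gene 0.24 and 0.20.

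Fos varied together with Egr1 across the 12 libraries (Pearson r = 0.845, Spearman rho = 0.839; permutation p = 0.00086 and 0.0011, 0.0069 and 0.0090 after Benjamini-Hochberg adjustment over 8 members compared). Without the 2 libraries farthest from the median of Fos, r was 0.753. The permutations moved libraries freely across the groups and times. The permutation p-values given here therefore do not separate variation between libraries from differences between the groups. With Junb, r was 0.649 and rho 0.762 (adjusted permutation p = 0.0964 and 0.0216), and r was 0.943 without WT ZT0 replicate 2 and 0.582 without the 2 libraries farthest from the Fos median. Within the 6 ZT12 libraries alone, r with Fos was 0.975 for Ier2, 0.971 for Jund, 0.931 for Junb, 0.920 for Jun, 0.881 for Egr1, 0.847 for Btg2, 0.191 for Atf3 and 0.0868 for Ier3. Within the 6 ZT0 libraries it was 0.151, 0.129, 0.347, 0.451, 0.142, 0.217, -0.491 and 0.573 in the same order. After the group means were taken out, r over the 12 was highest for Jun (0.651), with 0.551 for Egr1, 0.435 for Ier2 and 0.311 for Junb. The ZT12 libraries also differ in their red cell sums, given above, whose part in these correlations was not tested. Over all 12, Ier2 had r = 0.495 and rho = 0.615 (adjusted permutation p = 0.201 and 0.0742), and Ier3 r = -0.601 and rho = -0.650 (adjusted permutation p = 0.109 and 0.0694). For Jun, Jund, Btg2 and Atf3, r lay between -0.238 and 0.311, with adjusted permutation p of 0.538 to 0.777.

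**Figure D5:**
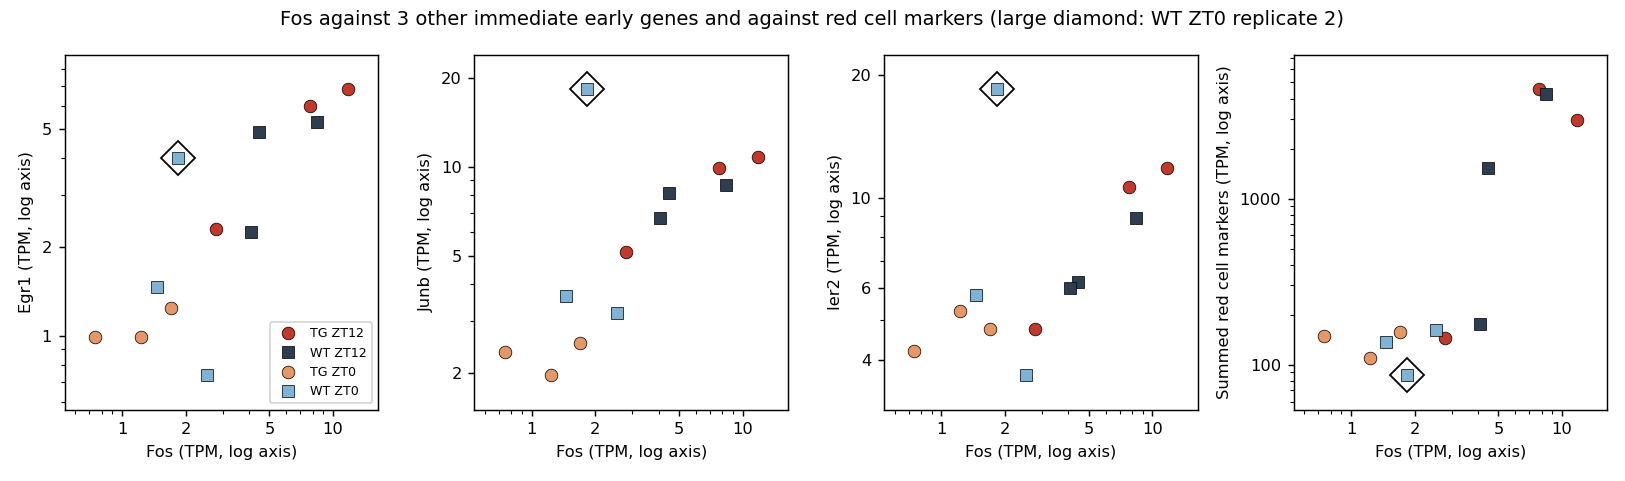
Fos in TPM on the x axis against Egr1, Junb, Ier2 and the summed red cell markers on the y axes, all log axes, 1 point a library, coloured by group. The ZT12 points climb with Fos in the first 3 panels, WT ZT0 replicate 2 (large diamond) sits above the other ZT0 points at 4.002 TPM of Egr1, 18.4 TPM of Junb and 18.5 TPM of Ier2, and 4 ZT12 libraries stand at 1526 TPM of red cell markers or more.

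The genes whose pattern over the 12 libraries was most like the mean of the 9 members were Saysd1 (r = 0.934), Larp7 (0.926), Isg15 (0.926), Tm6sf1 (0.912), Mrpl43 (0.904), Gpx1 (0.903), Ormdl2 (0.898) and Mydgf (0.896). These are descriptions over 12 libraries that share their depth across genes, and r was 0.838 to 0.906 without WT ZT0 replicate 2. Isg15, an interferon-induced ubiquitin-like protein, had 3.36, 3.30 and 2.04 TPM in TG and 2.42, 5.56 and 2.57 TPM in WT at ZT12, against 1.17, 1.09 and 1.72 TPM in TG and 2.02, 7.46 and 1.22 TPM in WT at ZT0. Its highest library was again WT ZT0 replicate 2.

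Other genes of the pathway were described as lists, by their counts. Among 26 other immediate early genes, 21 were tested and limma called 0 in any comparison. For ZT12 over ZT0 in both genotypes limma-voom called 2 of 21 (1.86% of all genes) and 5 had an unadjusted p under 0.05 (6.80% of all genes); 6 were positive and 15 negative, with a median of -0.06 against -0.03 over all genes. Klf10, a Krüppel-like factor, stood at 0.80 (adjusted p = 0.140) and Ier5 at -0.77 (adjusted p = 0.416, limma). Ier5 had 7.12, 24.1 and 6.41 TPM in WT at ZT0, and its value includes the high WT ZT0 replicate 2. Btg1, the close relative of Btg2, had the lowest value of that list for TG over WT at ZT0, -0.90, with 1.99, 2.47 and 2.25 TPM in TG and 1.88, 22.3 and 2.25 TPM in WT, where WT ZT0 replicate 2 was again the high one.

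Of 12 AP-1 relatives and partners 7 were tested and 0 called by limma or limma-voom, with 1 of 7 at an unadjusted p under 0.05 for time in both genotypes (6.80% of all genes), and for ZT12 over ZT0 their values ran from -0.42 for Jdp2, an AP-1 repressor, to 0.16 for Mafk. Upstream, 0 of 6 genes of serum response factor and its partners, 0 of 8 CREB genes and 0 of 15 kinase genes were called in any comparison by limma or limma-voom. For time in both genotypes, 0, 0 and 3 of them had an unadjusted p under 0.05, against 6.80% of all genes. The serum response factor genes had median log2 fold changes of TG over WT of -0.16 at ZT12 and -0.19 at ZT0, against -0.07 and -0.10 over all genes. The ZT0 medians were taken with WT ZT0 replicate 2 kept. Rps6ka4, the kinase MSK2, was the lowest kinase for TG over WT at ZT0, at -1.05 (adjusted p = 0.998, limma). It had 2.55, 1.76 and 2.37 TPM in TG and 5.23, 8.01 and 4.26 TPM in WT. These groups did not overlap, while 3.22% of all genes were wholly lower in TG.

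Dusp10 was the 1 feedback gene called. This MAP kinase phosphatase, which switches off p38 and JNK, rose at ZT12 over both genotypes by 0.82 ± 0.12 (SE, n = 6 each, adjusted p = 0.0064, limma). Of 9 tested feedback genes 1 rose and 0 fell, while 0.883% of all genes were called. Dusp10 had 27.4, 23.1 and 24.2 TPM in TG and 39.8, 23.9 and 30.2 TPM in WT at ZT12, against 13.2, 11.5 and 14.2 TPM in TG and 15.9, 19.6 and 18.5 TPM in WT at ZT0. All 6 ZT12 libraries exceeded all 6 of ZT0, as in 0.538% of all genes, a wider gap than that of Fos in TPM. Dusp1, the phosphatase usually induced with Fos, was at 0.09 (adjusted p = 0.997).

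Of 5 clock genes that also answer to acute stimuli, 1 rose and 2 fell at ZT12 over both genotypes. Over all genes, 0.883% were called. Nr1d1, the repressor REV-ERB alpha, rose by 2.42 (adjusted p = 6.2e-07), Per2 fell by 1.38 (adjusted p = 6.5e-05) and Per1 fell by 0.78 (adjusted p = 0.0181, limma). Per1 and Per2 are direct CREB targets as well as clock genes, and CREB activity was not tested. Of 8 heat shock genes, which rise in warmed or handled tissue, 0 were called in any comparison by limma or limma-voom, and for ZT12 over ZT0 their median was -0.06, against -0.03 over all genes, and the unadjusted p of 2 of 8 was under 0.05, against 6.80% of all genes.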

How the data were processed

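Poly(A) RNA of gastrocnemius was sequenced as unstranded libraries made with the NEBNext Ultra kit, per the labels' protocols. Reads were handled with HOMER 4.11.1, STAR, bcl2fastq and DESeq2 on mm10, per the submitters' processing notes. The authors deposited a TPM table of the 12 libraries, whose genes all reach 1 TPM in WT ZT0 replicate 1, so a gene scarce in that library is not listed. The authors also deposited, per time, a table of log2 values, log2 fold changes and p-values.

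Genes at 1 TPM or more in at least 3 libraries were tested on log2(TPM + 1) with limma 3.58.1 (R 4.3.3, mean-variance trend), on all 4 groups, with Benjamini-Hochberg adjustment over all tested genes and a threshold of 0.05. TPM times transcript length gave whole reads, used for limma-voom. Values under 500 reads were whole within 0.1 read plus rounding error, judged for the 96.5% of genes with the same listed length at both times. Other values were rounded without that check. The procedure was tested on simulated data. Correlations used 100000 permutations of the libraries, made across all groups. Replicate numbers did not pair libraries. Alternatives were scaling, filter, pseudocount, replicate block, each library left out, and covariates for red cells and depth. The 9 members, the 8 genes most alike, and the highest and lowest genes of each list are named. Members and lists were chosen with earlier results of these data known. Intervals of fold changes rest on the spread between libraries, and the Poisson interval on counting error only. Without strand, reads of overlapping antisense genes cannot be told apart.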

Additional observations from a re-analysis of the deposited data

How the results depend on the processing

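Among the refitted log2 fold changes of members, 1071 kept their direction and side of the threshold, 11 lost a call, 10 gained one and 43 changed sign. The number of members called for ZT12 over ZT0 in both genotypes, 1 with all libraries, was 2 with upper-quartile scaling, 2 with the replicate block (Fos at adjusted p = 0.0468 and Egr1 at 0.0414), 3 with both replicate 2 of WT ZT0 and replicate 1 of TG ZT12 left out, and 0 with a pseudocount of 5, limma-voom, the red cell covariate or the depth covariate; leaving out 1 library gave 0 to 3. In TG alone it was 1 without both of those libraries and 0 to 1 with 1 library left out. Replicate numbers do not pair the libraries: same-numbered deviations correlated at -0.35 to 0.29, and 5 of the 12 resembled a same-numbered library most. For TG over WT at ZT0, Ier3 was 0.051 with median-of-ratios and 0.061 with upper-quartile scaling; upper-quartile scaling moved the median of all genes there from -0.10 to 0.01. Without both libraries, Egr1 was 0.0045 and Ier2 0.028 at ZT0, Fos -0.15, Junb -0.11, Jund -0.030 and Egr1 -0.042 at ZT12, and Ier2 0.50 for ZT12 over ZT0 in WT. With the depth covariate, Fos was -0.10 and Btg2 0.43 for TG over WT at ZT12, Junb -1.05 for time in WT, and Junb -0.15 and Ier2 -0.17 for time in both genotypes. With the red cell covariate, the time value of Atf3 was -0.011 in WT, -0.0058 in TG and -0.0085 in both, and that of Ier2 -0.077 in both. The cause was not tested, and depth and time cannot be told apart in these libraries.

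With 1 library left out, TG over WT at ZT0 ranged from -0.76 to 0.0045 for Egr1, -1.004 to 0.028 for Ier2, -0.14 to 0.039 for Ier3 and -0.085 to 0.16 for Atf3. At ZT12 it ranged from -0.15 to 0.73 for Fos, -0.11 to 0.36 for Junb, -0.030 to 0.13 for Jund, -0.11 to 0.58 for Egr1, -0.25 to 0.060 for Btg2 and -0.30 to 0.28 for Atf3. ZT12 over ZT0 ranged in WT from -0.11 to 0.996 for Junb and -0.53 to 0.50 for Ier2, and in TG from -0.12 to 0.038 for Jund, -0.21 to 0.074 for Btg2 and -0.14 to 0.44 for Atf3.

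Over all genes, the 92 calls for time in both genotypes (37 higher, 55 lower at ZT12) were 204 with median-of-ratios scaling, 191 with upper-quartile scaling, 194 with limma-voom, 419 (324 higher, 95 lower) without both libraries, 13 with the red cell covariate and 2 with depth. The 16 in TG (4 higher, 12 lower) were 31, 29, 28, 71 (49 higher, 22 lower), 4 and 2 in the same order, and 3 with the TG libraries alone. The 12 in WT (2 higher, 10 lower) were 55 (29 higher, 26 lower), 47 (24 higher, 23 lower), 56 (23 higher, 33 lower), 73 (44 higher, 29 lower), 5 and 0. With 1 library left out they were 47 to 157 in both genotypes, 6 to 21 in TG and 4 to 35 in WT. For TG over WT, 0 calls became 1 at ZT0 with those 2 groups alone, 1 at ZT0 without TG ZT12 replicate 3 (adjusted p = 0.0134) and 2 at ZT12 without both libraries. Low counts limit Fos, Egr1, Junb, Ier3 and Atf3 most.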
